A study of Rattus norvegicus with 6 samples.

Results

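Vitamin A enters the body through the small intestine, as plant carotenoids and as the retinyl esters of animal food, and 8 rat genes that serve its uptake and use were chosen by name for this account: Rbp2, Lrat, Bco1, Isx, Aldh1a1, Retsat, Rarb and Crabp2. A gene was read from the rows of an Affymetrix array table that carried exactly 1 gene symbol, and, had a gene held several rows, from the row of highest mean. Of the 8 genes, 6 were measured, out of 14506 genes in all, each by 1 row. Isx and Rarb had no such row and were not analysed here.

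Tissue came from the ileum, where the small intestine ends before the colon, of 6 Zucker fa/fa rats aged 20 weeks. All of them, controls included, carry the faulty leptin receptor that makes this strain obese. A duodenum-jejunum bypass (DJB) was made in 3 rats and joined the jejunum to the start of the duodenum, so that food missed the duodenum and upper jejunum, and bile and pancreatic juice entered further down. The 3 sham rats had the same cuts sewn back in place, so food kept its normal course. The ileum was frozen 14 days after surgery, each rat gave 1 array, and the values used are the RMA levels on a log2 scale as deposited. Whole tissue was used, so fewer cells of a type and less RNA per cell cannot be told apart.

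In the gut, the enzyme BCO1 splits beta-carotene into retinal, and reductases turn retinal into retinol. Retinol is held by the binding protein CRBP2, made from Rbp2, esterified by LRAT and exported in chylomicrons. Part of the retinal is oxidised by enzymes of the ALDH1A family to retinoic acid, which switches genes on through the RAR and RXR receptors and is broken down by CYP26 enzymes. ISX, a homeobox factor that retinoic acid induces, represses the genes for BCO1 and for the carotenoid receptor SCARB1, and so limits uptake when vitamin A is ample.

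Bco1, the carotene-cleaving enzyme, had the clearest difference of the 6 measured genes, at a DJB mean 1.92-fold below sham with no overlap between the groups. Aldh1a1 was 1.88-fold, Rbp2 1.31-fold and Lrat 1.23-fold lower on average after DJB, each with overlapping groups, while Retsat and Crabp2 differed by less than the spread between rats. A gene is said here to have risen or fallen where limma, adjusting over 14506 genes, gave an adjusted p under 0.05, and none of the 6 passed that test. By the same test 0.772% of all genes passed, 0.393% higher and 0.379% lower. At an unadjusted p under 0.05, 3 of the 6 (Bco1, Rbp2 and Aldh1a1) lay lower and 0 higher, against 4.45% of all genes lower. Higher at that p were 1424 of the 14506 genes. The members were chosen with earlier results of these data known, so their counts beside those of all genes are a description only. The median difference of the 6 was -0.34 on the log2 scale, and that of all genes tested was 0.05.

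Bco1 and Rbp2, the members of lowest p, are shown with Retsat, the member of highest p, because these 3 of the 8 windows upstream of the start site share a nuclear receptor motif. Each line gives the 250 bases before the start site of the RefSeq gene in the rat assembly GRCr8, 5′ to 3′ on the plus strand, on which all of these genes lie. Capitals mark the motif AAAGGTCA or, read from the other strand, TGACCTTT.
Bco1 (chr19:62057890-62058139): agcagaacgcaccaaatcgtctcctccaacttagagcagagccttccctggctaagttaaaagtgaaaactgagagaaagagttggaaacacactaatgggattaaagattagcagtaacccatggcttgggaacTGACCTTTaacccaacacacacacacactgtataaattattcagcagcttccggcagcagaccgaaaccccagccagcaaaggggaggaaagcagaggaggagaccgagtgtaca
Rbp2 (chr8:107963292-107963541): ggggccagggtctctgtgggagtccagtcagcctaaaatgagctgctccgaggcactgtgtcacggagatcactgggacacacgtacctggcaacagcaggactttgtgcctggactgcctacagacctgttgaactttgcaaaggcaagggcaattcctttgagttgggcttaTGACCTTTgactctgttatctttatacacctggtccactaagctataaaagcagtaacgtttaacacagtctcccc
Retsat (chr4:106211209-106211458): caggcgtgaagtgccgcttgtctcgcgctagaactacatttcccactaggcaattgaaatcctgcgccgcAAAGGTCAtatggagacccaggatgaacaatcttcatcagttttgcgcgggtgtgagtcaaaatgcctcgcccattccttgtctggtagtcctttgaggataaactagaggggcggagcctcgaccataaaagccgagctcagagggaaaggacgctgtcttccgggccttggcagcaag
The motif holds AGGTCA, the hexamer that many nuclear receptors bind, and binding of any receptor here was not tested. It began 115 bases before the start site in Bco1, 76 in Rbp2 and 180 in Retsat. Over windows that also take in 50 bases after the start site, AAAGGTCA on either strand was found for 3 of the 8 genes. It was found for 1.43% of all 33469 RefSeq windows and for 1.08% of those of measured genes. Among 39 measured genes of the wider retinoid pathway list described below, it was found for 2 (5.13%). The shorter AGGTCA, which every such match contains, was in the same 3 genes and in 16.2% of all windows. Exact copies of AGGTCA repeated head to tail with 1 free base between them were in 0 of the 8 windows and in 0.0538% of all. Repeats with a mismatch in either copy were not searched, so such repeats at the marked sites are not excluded. The motifs were chosen after the windows had been read. Of the genes that share AAAGGTCA, Bco1 and Rbp2 had lower DJB means and Retsat a slightly higher one.

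**Figure D1:**
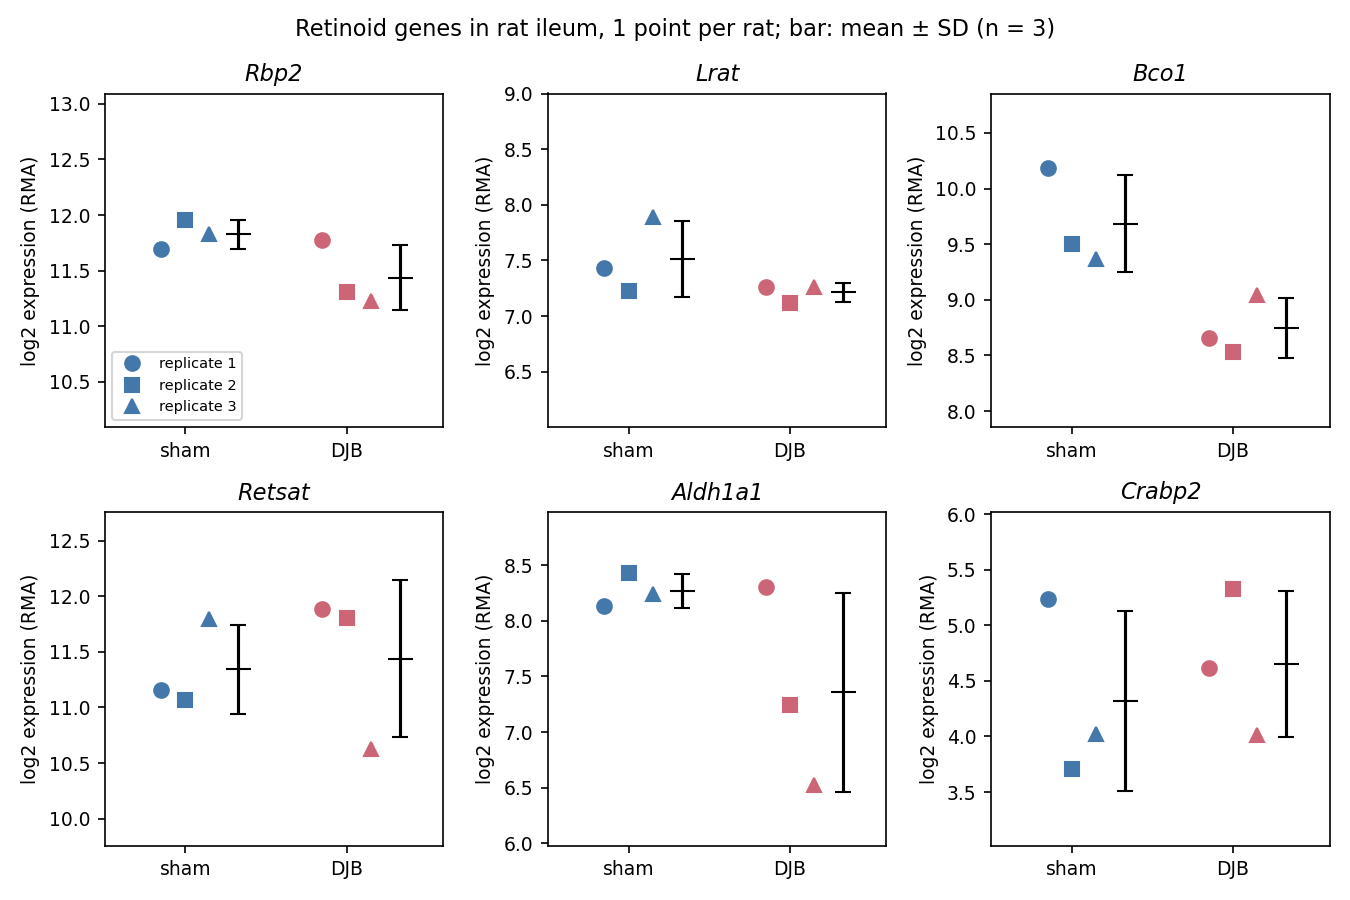
Log2 expression (RMA, vertical axes, each spanning 3 log2 units) of the 6 measured genes in the 3 sham (blue) and 3 DJB (red) rats, 1 symbol per rat with the replicate number of its group as shape, and bars for mean ± SD (n = 3). The 3 DJB values of Bco1, at 8.53 to 9.05, all sit under the sham values of 9.36 to 10.18, while Aldh1a1 in DJB 1 (8.31) sits inside the sham range.

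Bco1 read 10.18, 9.51 and 9.36 in sham 1 to 3, and 8.65, 8.53 and 9.05 in DJB 1 to 3, an order of rats kept for every gene here. Every DJB value was under every sham value, with a gap of 0.32 between the groups, as for 6.56% of all genes that lay lower without overlap. The means were 9.68 ± 0.44 (SD, n = 3) and 8.74 ± 0.27 (SD, n = 3), a difference of -0.94 ± 0.21 (SE) with a 95% interval from -1.43 to -0.46. Its limma adjusted p was 0.106, and the exact two-sided permutation test gave p = 0.1, the smallest that 3 against 3 arrays allow. Sham 1 was the highest array, and without it the difference was -0.69. Of all genes, 99.3% had a smaller absolute difference than Bco1.

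Bco2 is the mitochondrial relative of BCO1 that cuts carotenoids, xanthophylls included, off centre. It is 1 of 72 other genes of the retinoid pathway listed for this account, 54 of which were measured. Its levels were 8.72, 8.53 and 8.43 in sham and 8.09, 7.73 and 7.52 after DJB, so its groups did not overlap either. The difference of -0.78 ± 0.15 did not pass (limma adjusted p = 0.0609), but it passed without DJB 1 (adjusted p = 0.0197) and under 5 of the other alternatives. Over the left-out arrays it ran from -0.94 to -0.65, with a limma adjusted p of up to 0.1915. Both carotenoid cleavage genes measured thus lay lower in each bypassed rat than in any sham rat.

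Rbp2, which encodes the abundant retinol-binding protein of absorptive cells, read 11.70, 11.96 and 11.83 in sham and 11.77, 11.31 and 11.23 after DJB. DJB 2 and DJB 3 lay under all sham arrays and DJB 1 lay among them. The difference was -0.39 ± 0.15, with a 95% interval from -0.73 to -0.05 and a limma adjusted p of 0.287. Without DJB 1 it was -0.56 (adjusted p = 0.0988), and without DJB 3 it was -0.28. Over the left-out arrays its limma adjusted p ran up to 0.498.

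Lrat, which encodes the enzyme that esterifies retinol bound to CRBP2, read 7.43, 7.23 and 7.89 in sham and 7.27, 7.11 and 7.26 after DJB. The DJB arrays lay close together, near the lower end of the sham range, and only DJB 2 was under all sham arrays. The difference was -0.30 ± 0.16 (limma adjusted p = 0.433), with a 95% interval from -0.66 to 0.06. It rested in part on sham 3, the highest array, without which it was -0.11.

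Other genes of esterification and chylomicron export were lower on average in 4 of the 4 measured, beside 5550 of all 14506 genes, and none passed. Dgat1, a triglyceride synthesis enzyme that also esterifies retinol, read 11.13, 11.09 and 11.13 in sham and 10.89, 10.71 and 10.66 after DJB. Its difference was -0.36 ± 0.10 (limma adjusted p = 0.152, and 0.0376 with an intensity trend and robust variances). Over the left-out arrays its limma adjusted p was 0.127 to 0.343. Apob, the structural protein of chylomicrons, differed by -0.37 ± 0.13, and in both genes the groups did not overlap. Dgat2 differed by -0.34 ± 0.17 with overlapping groups, at -0.55 without sham 1 and -0.20 without sham 3.

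Retsat, whose enzyme saturates a double bond of retinol, read 11.16, 11.07 and 11.80 in sham and 11.89, 11.80 and 10.63 after DJB. DJB 1 and DJB 2 were above all sham arrays and DJB 3 below all of them. The difference was 0.10 ± 0.32 (limma adjusted p = 0.920), with a 95% interval from -0.63 to 0.82, so a change of either sign within that range could not be told from none. Without DJB 3 it was 0.50, and its sign turned without sham 2 (-0.04), DJB 1 (-0.13) or DJB 2 (-0.09).

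Receptors, carriers and enzymes that bring vitamin A and carotenoids to the cell were measured in 11 genes. Of the 11, 6 had a lower and 5 a higher DJB mean, where 61.7% of all genes had a higher one. The 3 of the 11 with the lowest p all lay lower. Among the higher ones Lpl, the lipoprotein lipase gene, had the largest difference, 0.50 ± 0.35 with overlapping groups (limma adjusted p = 0.563). Scarb1, the lipoprotein receptor that takes up carotenoids and a repression target of ISX, fell from 7.95 ± 0.10 (SD, n = 3) to 7.05 ± 0.15 (SD, n = 3), a difference of -0.90 ± 0.11 (limma adjusted p = 0.00986). Its levels were 7.85, 7.95 and 8.05 in sham and 7.21, 6.91 and 7.04 after DJB, with a gap of 0.64 between the groups. Without sham 3 its adjusted p was 0.0545. Cd36, a scavenger receptor for fatty acids that also takes part in carotenoid uptake, fell by 0.98 ± 0.15 (limma adjusted p = 0.0252), from 11.10, 10.97 and 11.12 to 10.37, 10.12 and 9.75. That call ended without sham 1, sham 2, sham 3 or DJB 2 (adjusted p 0.0857, 0.0825, 0.119 and 0.103). These were the only 2 of the 54 pathway genes past the test, and 0 rose.

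Plb1 encodes a brush border phospholipase that also splits retinyl esters, so that retinol can be absorbed. Its levels of 12.53, 12.50 and 12.64 in sham were followed by 11.998, 10.70 and 9.95 after DJB. The sham rats were nearly alike and the DJB rats were spread over more than 2 log2 units, all under sham. The difference of -1.67 ± 0.41 (3.19-fold) did not pass (limma adjusted p = 0.126), but without DJB 1 it was -2.23 (adjusted p = 0.00354), and it also passed with array weights (0.0357). Without DJB 3 it was -1.20 (limma adjusted p = 0.166), and without sham 3 the adjusted p was 0.318. Among the other genes of uptake and carriers, none had an unadjusted p under 0.05 except Rbp4, the plasma retinol carrier, at -0.34 ± 0.15 (limma adjusted p = 0.343).

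Intracellular retinyl ester hydrolysis was measured by 4 genes, of which none passed. Pnpla2, a triglyceride lipase, read 9.68, 9.61 and 9.82 in sham and 10.19, 10.36 and 9.80 after DJB, at 0.42 ± 0.15 (limma adjusted p = 0.242). The carboxylesterase gene Ces2c differed by -0.42 ± 0.26 and the hormone-sensitive lipase gene Lipe by -0.25 ± 0.16, both with overlapping groups. Ces2c was at -0.12 without DJB 3 and -0.68 without DJB 1, and Lipe at -0.10 without sham 3 and -0.39 without DJB 1.

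Interconversion of retinol and retinal was covered by 14 genes, and none passed. Of these 7 had a higher and 7 a lower DJB mean, where 61.7% of all genes had a higher one. Rdh16, a microsomal retinol dehydrogenase, read 8.53, 8.91 and 8.82 in sham and 8.10, 7.01 and 6.96 after DJB, a difference of -1.40 ± 0.27 (2.64-fold) with a limma adjusted p of 0.0615. Its DJB arrays all lay under sham, DJB 1 nearest to it, and without DJB 1 it passed (adjusted p = 0.00137), as it did with arrays centred (0.0440), with dim rows left out (0.0336) and with array weights (0.0154). Over the left-out arrays its difference ran from -1.77 to -1.20, with a limma adjusted p of up to 0.212. Rdh13, a mitochondrial relative, went the other way, from 6.42, 6.64 and 6.49 to 7.05, 7.17 and 6.91. Its difference was 0.53 ± 0.11 (limma adjusted p = 0.0750) with no overlap. Rdh13 passed with dim rows left out, with an intensity trend and robust variances, and with array weights (0.0314, 0.0373 and 0.0438). Over the left-out arrays its limma adjusted p was 0.0835 to 0.231. Akr1b10, of the aldo-keto reductase family that can reduce retinal, differed by -0.34 ± 0.13 at dim levels of 4.47 to 5.15, under the median of 6.11 over all rows.

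Aldh1a1, a retinal dehydrogenase that makes retinoic acid, read 8.13, 8.43 and 8.24 in sham and 8.31, 7.24 and 6.53 after DJB. DJB 1 lay within the sham range, and DJB 2 and DJB 3 lay below all sham arrays. The SD was 0.15 in sham and 0.90 after DJB (n = 3 each), 5.91 times as large. The difference was -0.91 ± 0.36 (limma adjusted p = 0.299), with a 95% interval from -1.72 to -0.10. Without DJB 1 it was -1.39 and passed (adjusted p = 0.0289), and without DJB 3 it was -0.49. Of 4 accessions paired with its row, 1 was that of Aldh1a1 in the RefSeq gene table and 3 were not found there under that name, so signal from a close relative of the gene in this row was not tested. The rows of Rbp2, Lrat and Crabp2 were each paired with 2 accessions, of which 1 was not found there under the gene's name.

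The 2 relatives measured went apart and neither passed. Aldh1a2, the retinal dehydrogenase of intestinal dendritic cells and stroma, differed by 0.28 ± 0.14 (limma adjusted p = 0.409), at levels of 5.60 to 6.30. Aldh1a3 read 7.68, 7.64 and 7.91 in sham and 7.72, 7.46 and 7.18 after DJB, at -0.29 ± 0.15 (limma adjusted p = 0.415). Aldh1a2 was at 0.16 without sham 2 and Aldh1a3 at -0.15 without DJB 3. In the same samples the dendritic cell and macrophage markers were higher after DJB in 6 of 9 genes without overlap, against 14.5% of all genes, with a list mean of 6.75 to 6.80 in sham and 6.92 to 7.26 after DJB. None of these 9 passed. The fibroblast and stroma markers had a higher DJB mean in 5 of 8 genes and a lower one in 3, and 0 without overlap, where 61.7% of all genes had a higher mean. Their list mean was 8.60 to 8.85 in sham and 8.65 to 9.19 after DJB, and none passed. The part of either list in the Aldh1a2 values was not tested.

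Crabp2, whose protein carries retinoic acid to its receptors, was dim, at 5.23, 3.71 and 4.02 in sham and 4.62, 5.33 and 4.01 after DJB. The groups overlapped over nearly their whole range, and the difference was 0.33 ± 0.41 (limma adjusted p = 0.761), with a 95% interval from -0.59 to 1.26. Without DJB 2 it was -0.01. Crabp1, a related carrier, differed by -0.07 ± 0.10, and Fabp5, which delivers retinoic acid to another receptor, by -0.00112 ± 0.094. Both of these carriers had group means under the median of 6.11 over all rows.

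None of the receptors and breakdown enzymes passed. Each of the 5 receptor genes measured differed by 0.14 or less on the log2 scale, with Rxra at -0.14 ± 0.10, Rxrb at 0.13 ± 0.11 and Rara at -0.10 ± 0.12. The 95% interval of Rxra ran from -0.38 to 0.09. Without DJB 1 Rxra was at -0.22, Rxrb at 0.04 and Rara at -0.20. Cyp26b1, which degrades retinoic acid, read 4.87, 5.11 and 4.89 in sham and 5.36, 5.09 and 5.21 after DJB, at 0.26 ± 0.11 (limma adjusted p = 0.336). Cyp26a1, which retinoic acid itself induces in many cells, differed by 0.05 ± 0.18, and its sign turned after another quantile normalisation. Both lay under the median of all rows.

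Genes that respond to retinoic acid or serve gut homing of lymphocytes were measured in 6 cases, and none passed. Itgb7, a subunit of the gut-homing integrin, differed by 0.34 ± 0.15 (limma adjusted p = 0.350), with 7.33, 7.52 and 7.29 in sham and 7.73, 7.42 and 8.02 after DJB. The gut-homing chemokine receptor gene Ccr9 differed by 0.16 ± 0.14 and the transglutaminase gene Tgm2 by 0.10 ± 0.12. Single arrays moved these values: without DJB 3 Itgb7 was at 0.19 and Ccr9 at 0.02, without DJB 2 Ccr9 was at 0.31, and Tgm2 ran from 0.03 without sham 2 to 0.22 without sham 1. T cell markers had a list mean of 8.01 to 8.22 in sham and 7.97 to 8.55 after DJB. For B cell markers it was 5.90 to 7.05 and 4.94 to 6.86. Groups overlapped in every gene of both lists, and none passed. The part of lymphocyte content in the values of the homing genes was not tested.

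Of the transcription factors tied to Isx and to its targets, Gata4 had the largest difference. This gene, which marks the upper small intestine, read 7.83, 7.82 and 7.36 in sham and 6.95, 5.97 and 6.55 after DJB. Its difference of -1.18 ± 0.23 did not pass (limma adjusted p = 0.0643), but passed without DJB 1 (adjusted p = 0.0289), with arrays centred (0.0454), with dim rows left out (0.0339) and with array weights (0.0211). Over the left-out arrays it ran from -1.41 to -0.92, with a limma adjusted p of up to 0.1905. Hnf4a, a nuclear receptor of enterocytes, differed by 0.15 ± 0.09, higher after DJB without overlap, and Cdx2, the intestinal identity factor known to switch on Isx, by 0.03 ± 0.10, whose sign turned with arrays centred on their medians.

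**Figure D2:**
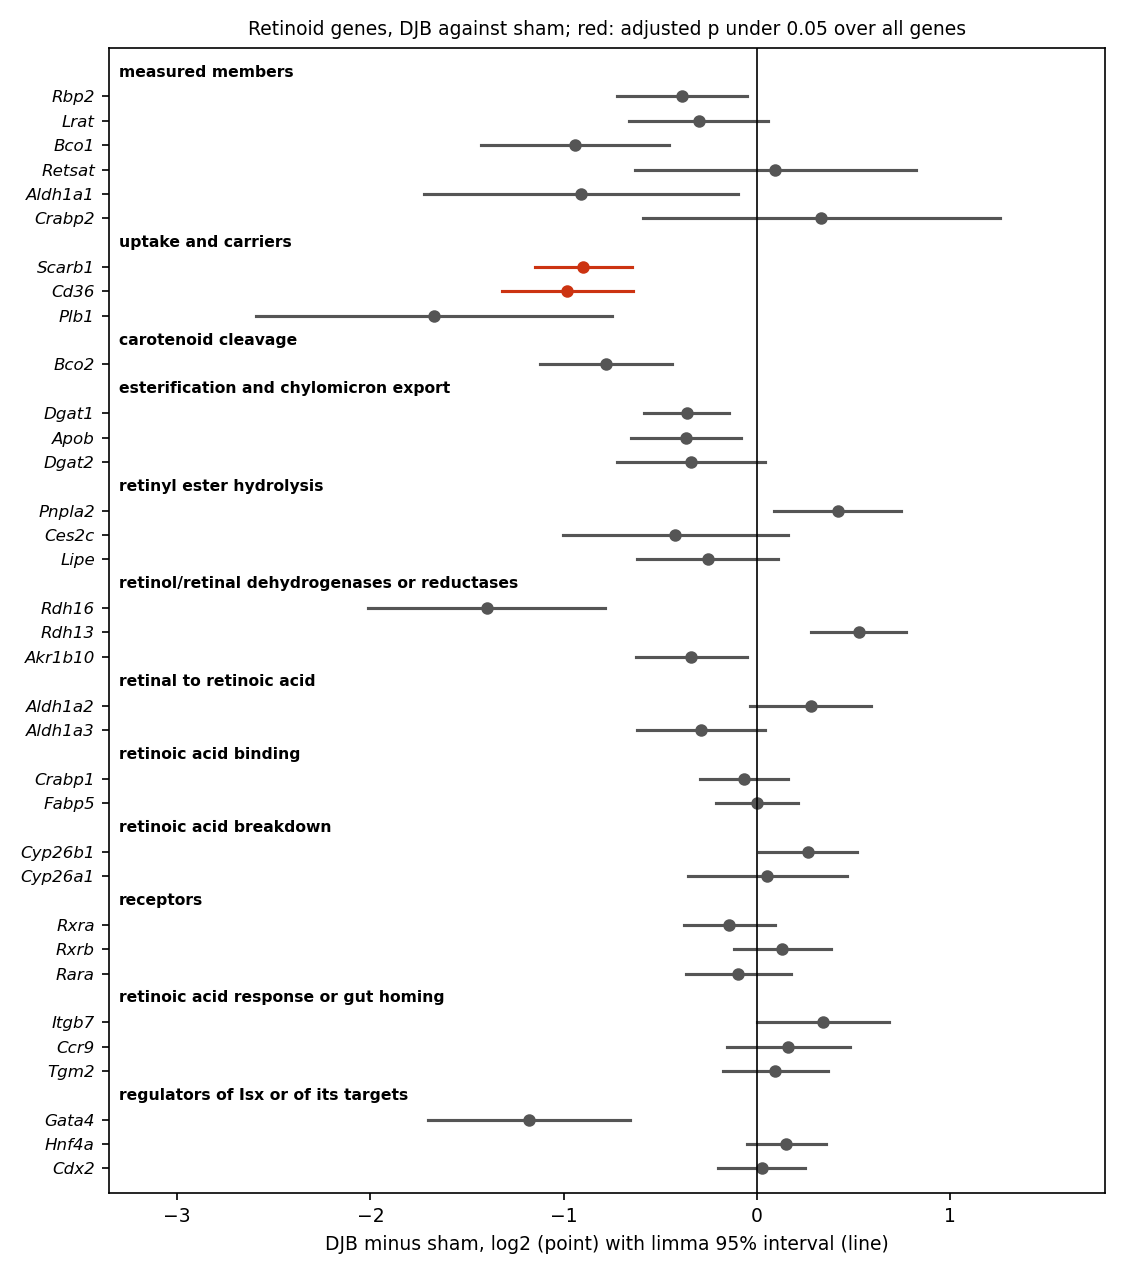
DJB minus sham on the log2 scale (horizontal axis; point, with the limma 95% interval as a line) for the 6 measured genes and the pathway genes named here, grouped by role, red where the adjusted p over all genes was under 0.05. Only Scarb1 (-0.90) and Cd36 (-0.98) are red, Bco1 lies at -0.94, and the receptors lie near 0.

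Over the whole pathway list, 26 of the 54 genes had a higher and 28 a lower DJB mean, where 61.7% of all genes had a higher one. The median difference was -0.00387, beside 0.05 over all genes. Groups did not overlap in 11 of the 54, 9 of them lower, where 21.1% of all genes did not overlap and 6.56% lay lower. Called were 2 of 54, beside 0.772% of all genes. The list too was chosen with earlier results of these data known, so these counts are a description only. The 9 were Scarb1, Cd36, Plb1, Bco2, Dgat1, Apob, Rdh16, Akr1b10 and Gata4, and the 2 higher ones were Rdh13 and Hnf4a, where 14.5% of all genes lay higher. By role, the median difference was -0.03 over the 11 genes of uptake and carriers, -0.35 over the 4 of esterification and export, -0.04 over the 4 of ester hydrolysis, -0.00274 over the 14 dehydrogenases or reductases and -0.07 over the 5 receptors. It was 0.16 over the 2 breakdown enzymes, 0.10 over the 6 response and homing genes and 0.03 over the 3 regulators.

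The DJB rats differed among themselves in these genes. Of the 14 measured members and pathway genes that were lower at an unadjusted p under 0.05, DJB 1 was the highest DJB array in 13, Bco1 being the exception. Leaving out DJB 1 enlarges the differences of these 13 by construction, so a pass without it is no separate support. Among all 645 genes that were lower at that p, DJB 1 was highest in 57.2%. DJB 1 also had the highest array median, 6.19 against 6.08 to 6.11 on the other arrays. Bco1 was highest in DJB 3 instead, and so did not share the order of Aldh1a1, Plb1 and Rdh16.

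**Figure D3:**
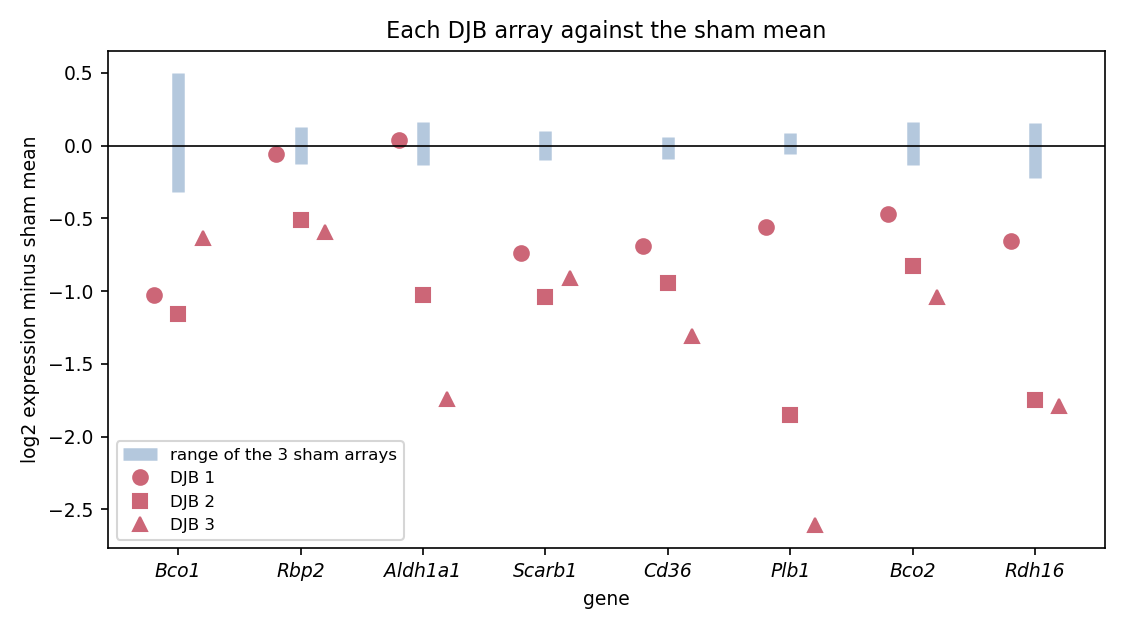
Log2 expression of each DJB array minus the sham mean (vertical axis) for 8 genes, with the range of the 3 sham arrays as a blue bar. DJB 1 (circle) lies nearest to sham for all genes shown except Bco1, where DJB 3 (triangle) does, and for Rbp2 and Aldh1a1 it lies within the sham range.

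Pattern likeness was taken as the Pearson correlation with Bco1, the member of lowest p, over the 6 arrays. The most alike of all genes tested were Zfpm1 (0.983), Smc1b (0.981) and Irf2 (0.978). Zfpm1, a cofactor of GATA factors, read 6.62, 6.46 and 6.46 in sham and 6.15, 6.13 and 6.29 after DJB, a difference of -0.32 ± 0.10. Irf2, an interferon regulatory factor, differed by -0.33 ± 0.10. Smc1b, of the meiotic cohesin complex and dim at 3.17 to 3.85, differed by -0.35 ± 0.13, and none of the 3 passed. All share the arrays and the group difference, and correlations over 6 arrays chosen from 14506 genes are a description only.

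The arrays carried the ileal markers, with Fabp6 at 13.44 to 13.97 and a mean over 5 ileal genes of 9.78 to 10.35 in sham and 10.71 to 11.44 after DJB. Of these 5 genes 2 rose, beside 0.393% of all genes, and 4 were higher without overlap, beside 14.5%. Slc10a2 rose by 1.73 ± 0.22 (limma adjusted p = 0.0106) and Nr1h4 by 0.98 ± 0.15 (limma adjusted p = 0.0275). Adipocyte, hepatocyte and exocrine pancreas lists lay under the median of all rows, with list means of 4.46 to 5.68. Absorptive enterocyte markers averaged 12.37 to 12.68 in sham and 12.15 to 12.36 after DJB, with 5 of 10 genes lower without overlap, beside 6.56% of all genes, and none past the test. General epithelial markers were at 12.08 to 12.16 in sham and 12.17 to 12.21 after DJB. Markers of the upper small intestine had a lower list mean, 6.83 to 7.15 after DJB against 7.59 to 7.68 in sham. Of its 7 genes 2 fell, S100g and Slc46a1, beside 0.379% of all genes, while the iron handling genes Slc40a1 (0.49 ± 0.09, higher without overlap, limma adjusted p = 0.0530) and Cybrd1 (0.18 ± 0.13) had higher DJB means. The 3 colon markers had a mean of 6.48 to 6.72 in sham and 7.22 to 7.93 after DJB, led by the carbonic anhydrase gene Car1 (2.58 ± 0.51), and none passed. Car1 was the only 1 of the 3 that was higher without overlap, beside 14.5% of all genes. The part of these marker shifts in the values of the retinoid genes was not tested beyond the scales that follow.

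Set relative to the enterocyte marker mean of the same array, Bco1 differed by -0.72 ± 0.39 and its groups overlapped (exact two-sided permutation p = 0.2). Relative to the epithelial marker mean it differed by -1.01 ± 0.32 without overlap (exact two-sided permutation p = 0.1). On those scales Rbp2 differed by -0.16 ± 0.17 and -0.46 ± 0.19, Lrat by -0.07 ± 0.15 and -0.37 ± 0.19, and Aldh1a1 by -0.68 ± 0.48 and -0.98 ± 0.53. The differences of Rbp2 and Lrat were thus smaller than their errors against enterocyte markers and larger against epithelial ones. These scales were chosen after the data were seen, and the enterocyte list holds Apoa4 and Apob, which lay lower themselves (Apoa4 by 0.91 on the log2 scale). It also holds Alpi, whose levels varied most, at 9.79, 9.23 and 11.51 in sham and 10.25, 10.57 and 9.27 after DJB. The enterocyte scale without Alpi was not tested.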

How the data were processed

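RNA of 6 rat ilea was measured on whole-transcript arrays. Per the submitters' processing notes the deposited log2 values were made with RMA (no version given), which corrects background, quantile normalises and summarises probes, so that a shift shared by most genes is hidden and folds of dim genes are understated. They were used as deposited. Genome build and scanner data were not given in the sources used here. Of 29214 rows, 15310 carried 1 symbol, 323 several and 13581 none in the platform annotation. Rows with 1 symbol gave 14506 genes, by the row of highest mean. The number of arrays limits the precision.

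DJB and sham were compared with limma 3.58.1 in R 4.3.3 (lmFit, eBayes, no covariate, no filter, two-sided, Benjamini-Hochberg over all genes, threshold 0.05). On simulated data with independent errors, only the mean size of planted differences and the sign of those called were checked. Shifts shared by the genes of an array were not simulated. SE and 95% intervals are those of the fit, except beside values relative to marker lists. Members and lists were chosen with earlier results of these data known. Named were all members, pathway genes past the threshold, up to 3 of lowest p per role and the 3 genes most like the member of lowest p. Rbp4, Lpl, Apoa4, Alpi, Slc40a1, Cybrd1 and Fabp6 were named after their values were seen. Of 72 pathway genes 18 were not analysed here. Alternatives covered normalisation, centring, dim rows, variance model, array weights, rows, replicate number and each array left out. Promoter sequences are RefSeq's for GRCr8. Figures were drawn with matplotlib 3.10.9.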

Additional observations from a re-analysis of the deposited data

How the results depend on the processing

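The measured members had 0 calls in either direction under every alternative of the whole fit, except 1 lower call (Aldh1a1) without DJB 1, so the lower count ran from 0 to 1 over the left-out arrays. Bco1, Rbp2, Lrat and Aldh1a1 kept their sign in all 14 alternatives of the fit, with the Bco1 adjusted p (limma) between 0.0561 and 0.242. Lower calls among the pathway genes, 2 in the main fit, were 5 with arrays centred and 5 with dim rows left out. They were 4 with an intensity trend and robust variances, 6 with array weights, 1 with all rows tested and 0 to 6 over the left-out arrays. Higher calls among the pathway genes, 0 in the main fit, were 1 (Rdh13) with dim rows left out, with the trend and robust variances, and with array weights. Over all genes, 57 higher and 55 lower calls became 129 and 96 with dim rows left out and 189 and 124 with the trend and robust variances. These counts were 89 and 84 with array weights, and 22 to 38 and 10 to 70 over the left-out arrays. With the replicate number as a block they were 27 and 23, and 1 pathway gene (Scarb1) was lower. The replicate numbers did not pair the arrays, since deviations of same-numbered arrays correlated at 0.00532, -0.121 and -0.149. Signs turned for Cyp26a1 (-0.00044 after repeated quantile normalisation, -0.011 with array weights, -0.11 to 0.26 over left-out arrays) and Cdx2 (-0.0049 with arrays centred, -0.0285 to 0.082 over left-out arrays). Over left-out arrays Retsat ran from -0.13 to 0.50, Crabp2 from -0.0051 to 0.79 and Fabp5 from -0.0516 to 0.0397. The cause of these differences was not tested. The median difference of all genes moved from 0.05 to 0.01 with repeated quantile normalisation and to 0.02 with centring. Akr1b10, Cyp26a1, Cyp26b1 and Crabp2 were dim, which limits what their values can show. The same holds for Aldh1a2, Crabp1, Fabp5, Rbp4 and Smc1b, whose mean levels over the arrays also lay under the median of all rows.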
